A study of Mus musculus with 9 samples.

Results

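Described here are 10 genes of the immediate early and stress responses, Actc1, Ankrd1, Atf3, Egr1, Fos, Jun, Junb, Ier2, Btg2 and Myc, out of 14300 protein-coding genes measured in all 9 libraries. Actc1, Ankrd1, Atf3 and Egr1 were selected on their measured values, because they stood high in 1 control library (control 1). Their level in that library, and every comparison that uses it, is therefore a description of what chose them. The other 6 were listed by name. All 10 symbols were found once in each deposited table.

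RNA was sequenced from tibialis anterior, a fast muscle of the lower leg, of male C57BL/6J mice. The 3 groups, of 3 libraries each, were controls, mice whose testes had been removed (ORX), and orchiectomised mice that received the androgen dihydrotestosterone (ORX+DHT). Sampling was 4 weeks after treatment. The labels call the first group control and the deposited tables call it sham. The dose and route of the hormone, the age of the mice and the number of mice behind a library are not given in the sources used here, so p-values measure the spread between libraries labelled as biological replicates.

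Immediate early genes are switched on within minutes of a signal such as stretch, injury, calcium entry or a growth factor, without new protein synthesis, and their transcripts are short-lived. Fos, Jun and Junb encode subunits of the transcription factor AP-1, and Egr1 and Myc encode further transcription factors. Atf3 encodes a factor of the stress response. Ier2 is an immediate early gene of growth factor signalling, and Btg2 encodes an antiproliferative protein that promotes messenger RNA decay. Ankrd1, which encodes a titin-binding ankyrin repeat protein, and Actc1, which encodes cardiac alpha-actin, are abundant in heart and developing muscle and low in mature limb muscle, where loading, injury or denervation raises them. Known inputs at such genes are serum response factor at CArG boxes, CREB and ATF factors at TGACGT, TEAD factors at CATTCC, and AP-1 itself at TGANTCA.

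Promoters are shown for 5 members that carried 1 of these motifs. Of these, 3 stood high in control 1 (Actc1, Ankrd1, Atf3) and 2 did not (Fos and Btg2). Each run is the 250 bases before the RefSeq gene start (GRCm38.p6), 5′ to 3′ on the gene's strand, and capitals mark the motif matches on either strand.
Actc1 promoter (chr2:114052876-114053125, minus strand): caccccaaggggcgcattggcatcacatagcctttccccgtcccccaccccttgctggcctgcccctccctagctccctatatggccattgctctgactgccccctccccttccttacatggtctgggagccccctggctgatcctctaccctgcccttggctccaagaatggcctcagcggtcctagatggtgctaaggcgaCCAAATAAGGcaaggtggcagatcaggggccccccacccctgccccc
Ankrd1 promoter (chr19:36119845-36120094, minus strand): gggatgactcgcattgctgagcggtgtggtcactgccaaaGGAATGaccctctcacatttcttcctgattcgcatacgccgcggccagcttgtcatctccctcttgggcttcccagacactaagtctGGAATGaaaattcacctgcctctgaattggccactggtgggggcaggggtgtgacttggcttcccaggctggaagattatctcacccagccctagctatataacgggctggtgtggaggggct
Atf3 promoter (chr1:191183334-191183583, minus strand): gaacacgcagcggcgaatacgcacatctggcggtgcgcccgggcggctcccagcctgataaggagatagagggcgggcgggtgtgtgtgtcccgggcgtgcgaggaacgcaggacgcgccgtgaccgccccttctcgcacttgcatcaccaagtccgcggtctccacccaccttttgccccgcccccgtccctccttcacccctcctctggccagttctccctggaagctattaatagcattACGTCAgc
Fos promoter (chr12:85473640-85473889, plus strand): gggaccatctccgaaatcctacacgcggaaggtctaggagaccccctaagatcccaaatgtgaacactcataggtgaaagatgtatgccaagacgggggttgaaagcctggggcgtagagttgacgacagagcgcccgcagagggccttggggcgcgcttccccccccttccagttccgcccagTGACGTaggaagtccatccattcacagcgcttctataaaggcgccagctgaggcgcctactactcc
Btg2 promoter (chr1:134079156-134079405, minus strand): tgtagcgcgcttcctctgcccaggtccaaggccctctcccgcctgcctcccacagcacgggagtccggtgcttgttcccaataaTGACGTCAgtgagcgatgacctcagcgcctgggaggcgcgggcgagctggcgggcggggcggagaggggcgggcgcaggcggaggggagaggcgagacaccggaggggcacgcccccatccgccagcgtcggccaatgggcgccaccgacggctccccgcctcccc

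Promoters of 7 members were matched by symbol in the RefSeq table. Those of Egr1, Ier2 and Myc were not matched, so whether they carry these motifs was not examined. The CArG box was found in 1 of them, Actc1, beginning 47 bases before the start, and in 1.47% of all 32851 promoter windows of this length. CATTCC was found in Ankrd1 alone, at 2 places, and in 12.6% of all windows. TGACGT was found in Atf3, Fos and Btg2 and in 6.47% of windows. In Btg2 the 2 matches, on opposite strands, overlap and form the palindrome in capitals. TGANTCA was found in 0 of the 7 and in 6.75% of windows. These are matches of letters in a short window, not measured binding. TGACGT occurred both in a member that stood high in control 1, Atf3, and in members that did not.

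Values are normalised counts, that is, reads scaled so that libraries of different depth can be compared. The libraries held 1340209 to 1682235 reads over the listed genes, so 1 read was worth 0.827 to 1.25 normalised counts. Several members rested on few reads. All 9 libraries together held 46 reads of Fos, 48 of Myc, 70 of Atf3 and 91 of Junb, against 1184 of Jun and 14739 of Actc1. Of the 10 members, 7 had a mean of at least 10 over all libraries, and Atf3, Fos and Myc did not. Control 1 stood apart from its group, with a chi-square per gene of 11.0 and 11.5 against the other 2 controls, where every other pair of replicates had 1.73 to 3.08, so values it moves are also given without it where a fit could be made. The 8 genes listed as markers of fast muscle were all present, with summed values of 226347 to 333549.

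Per kilobase of merged exons (GENCODE M21, GRCm38), Actc1 was the highest member in every group. In control, ORX and ORX+DHT muscle, in that order, it had 2066 ± 1950.3, 648 ± 121 and 534 ± 264 normalised counts per kilobase (SD, n = 3). Jun came next, at 40.3 ± 3.23, 33.6 ± 3.73 and 48.8 ± 6.51. Ankrd1 stood at 16.1 ± 12.2, 11.9 ± 3.81 and 7.04 ± 3.01, and Btg2 at 8.96 ± 2.44, 12.9 ± 4.17 and 10.002 ± 1.70. The order of these neighbours is not separated by their spread. Ankrd1 lay above Btg2 in control muscle and below it in the other groups, but control 1, which chose Ankrd1, raised its control mean. Controls 2 and 3 alone averaged 26.6 normalised counts for Ankrd1 (2.89 kb) and 28.1 for Btg2 (2.74 kb). In the mean of controls 2 and 3, Ankrd1 was thus below Btg2 per kilobase too. In control 2 alone it was above, at 34.3 against 25.4 normalised counts. Control 1 was also the library lowest in Btg2. Fos, the best-known member, was among the lowest, at 1.72 ± 0.680, 2.501 ± 2.18 and 2.22 ± 1.24 per kilobase. Myc was the lowest in control muscle, at 0.564 ± 0.308.

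Actc1 (ENSMUSG00000068614, chr2:114047282-114053548, minus strand) was the most abundant member. Its normalised counts were 6967, 1208 and 1851 in controls 1, 2 and 3, 1026, 1253 and 864 in ORX 1, 2 and 3, and 445, 1300.3 and 849 in ORX+DHT 1, 2 and 3. Values of the next genes follow the same order. Control 1 was 6.34 times the mean of the other 8 libraries, and on the log2 scale this difference (2.76) was the largest of all 8631 genes with a mean of at least 10. The lowest library was ORX+DHT 1, 15.7-fold below control 1, and only Atf3 spanned a wider fold range among the 9 members with reads in every library. In a bulk sample, more cells of a type and more RNA per cell cannot be told apart.

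Ankrd1 (ENSMUSG00000024803, chr19:36111961-36120099, minus strand) had 86.2, 34.3 and 18.9 in the controls, 45.2, 35.0 and 23.2 with ORX and 13.2, 30.0 and 17.8 with ORX+DHT. Atf3 (ENSMUSG00000026628, chr1:191170296-191218039, minus strand) had 35.0, 5.53 and 3.97 in the controls, 8.83, 5.97 and 3.31 with ORX and 2.03, 7.73 and 2.96 with ORX+DHT. Control 1 was 3.17 times the mean of the other 8 for Ankrd1 and 6.93 times for Atf3. The Atf3 value there came from 28 reads, against 2 to 9 reads elsewhere. Over all 9 libraries, control 1 included, the profiles of these 2 genes, each centred on its own mean, were the most alike of any pair of members. Their root mean square difference was 0.36 on the log2 scale. Actc1 and Atf3 differed by 0.47. Actc1, Ankrd1 and Atf3 were all chosen for standing high in control 1, so their likeness was in part fixed by that choice. In all 3 genes ORX+DHT 2 was the highest of its group and ORX+DHT 1 the lowest.

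Egr1 (ENSMUSG00000038418, chr18:34859823-34864984, plus strand) also peaked in control 1, with a different order below it. It had 37.5, 6.63 and 6.95 in the controls, 22.6, 9.38 and 10.8 with ORX and 5.07, 4.83 and 16.8 with ORX+DHT. Control 1 was 3.61 times the mean of the others. The next libraries were ORX 1 and ORX+DHT 3, so no group stood wholly above another.

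**Figure D1:**
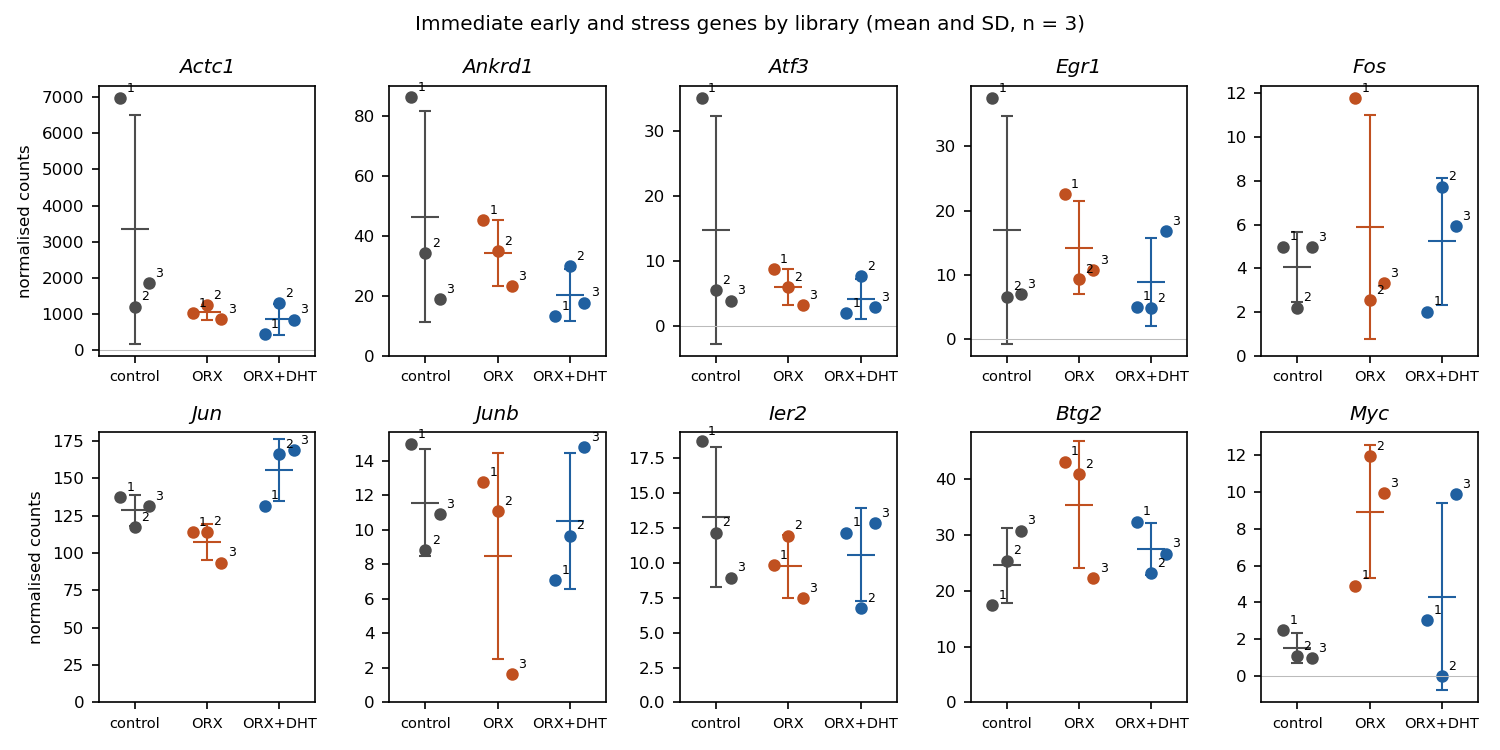
Normalised counts (vertical axes, each gene on its own scale) of the 10 genes in each library of the 3 groups; points are libraries numbered by replicate, with the mean and SD (n = 3). Control 1 is the highest of the libraries for Actc1, Ankrd1, Atf3 and Egr1 (for Egr1, 37.5 against 22.6 in ORX 1). Jun has its 3 ORX+DHT libraries (132 to 169) above its 3 ORX libraries (93.5 to 114).

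The members not chosen for control 1 behaved unevenly there. Junb (ENSMUSG00000052837, chr8:84974484-84978718, minus strand) had 15.0, 8.85 and 10.9 in the controls, 12.8, 11.1 and 1.65 with ORX and 7.09, 9.67 and 14.8 with ORX+DHT. Control 1 was the highest library, but ORX+DHT 3 came within a single read's worth of it. Ier2 (ENSMUSG00000053560, chr8:84661331-84662852, minus strand) had 18.7, 12.2 and 8.94 in the controls, 9.82, 11.9 and 7.44 with ORX and 12.2, 6.77 and 12.8 with ORX+DHT, with control 1 at 1.83 times the mean of the others. Btg2 (ENSMUSG00000020423, chr1:134075170-134079120, minus strand) went the other way. It had 17.5, 25.4 and 30.8 in the controls, 43.2, 40.9 and 22.3 with ORX and 32.4, 23.2 and 26.7 with ORX+DHT, so that control 1 was the lowest of the 9 libraries.

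Fos (ENSMUSG00000021250, chr12:85473890-85477273, plus strand) did not stand high in control 1. It had 4.99, 2.21 and 4.97 in the controls, 11.8, 2.56 and 3.31 with ORX and 2.03, 7.73 and 5.93 with ORX+DHT, from 2 to 12 reads per library. Its highest library was ORX 1, with 12 reads. All 3 groups overlapped, and at these depths no difference between them was detected.

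Counting all members, control 1 was the highest of 9 libraries for 6 of 10 (Actc1, Ankrd1, Atf3, Egr1, Junb and Ier2) and the lowest for 1 (Btg2). Of the 7 with a mean of at least 10 it was the highest for 5, and for 3 of them, Actc1, Ankrd1 and Egr1, all chosen for it, it lay at least 1 above the mean of the others on the log2 scale. This library is extreme for many genes. Among all 8631 it was the highest for 27.3%, the lowest for 24.7% and at least 1 above the others for 3.57%. Since control 1 chose 4 members, these counts are given with no test.

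Transcript length moved with control 1. Genes with under 1 kb of merged exons had a median difference of 0.83 between control 1 and the other libraries (log2 scale, 128 genes). Those of 1 to 2 kb had 0.66 (738 genes), 2 to 3 kb 0.35 (1142), 3 to 5 kb 0.07 (2432) and 5 kb or more -0.24 (4191). In each of the other 8 libraries the same 5 medians lay between -0.20 and 0.07. Actc1 (1.62 kb) and Ier2 (1.52 kb) fall in the second of these classes, with differences of 2.76 and 0.84. Atf3 (2.15 kb), Junb (2.30 kb), Fos (2.35 kb), Btg2 (2.74 kb), Ankrd1 (2.89 kb) and Myc (2.72 kb) fall in the third, with differences of 2.68, 0.74, 0.16, -0.74, 1.73 and -0.35. Jun (3.19 kb) and Egr1 (4.48 kb) fall in the fourth, with 0.11 and 1.93. Members of 1 length class therefore differed widely. The part of length in the values of control 1 was not tested.

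**Figure D2:**
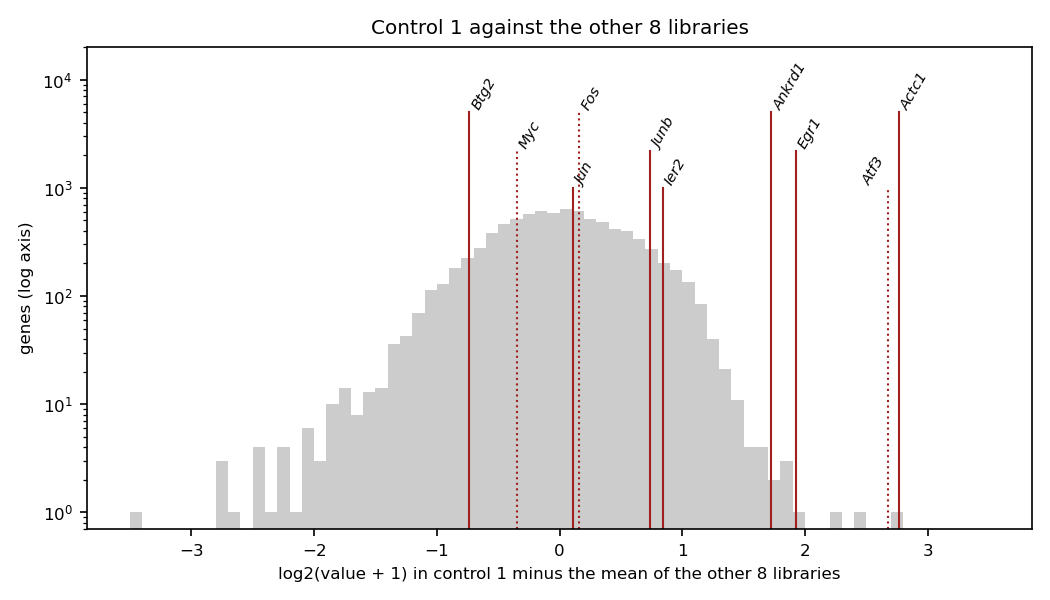
Histogram (log count axis) of the difference between control 1 and the mean of the other 8 libraries on the log2(value + 1) scale, for 8631 genes, with lines at the 10 members (dotted where the mean was under 10). Actc1, Atf3, Egr1 and Ankrd1 lie at the upper end, Jun and Fos near the middle, and Btg2 on the lower side.

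Markers of other cells were set beside these values. Cardiac muscle also expresses Actc1 and Ankrd1, and of 8 cardiac markers 5 were analysed. They summed to 18.7 normalised counts in control 1 and 22.8 to 34.4 in the other libraries, with Tnni3 and Ryr2 at 3 reads or fewer throughout. Satellite cell and myoblast markers (5 of 5) summed to 105 in control 1 and 85.2 to 115 elsewhere. Macrophage markers (6 of 6) summed to 76.2 against 48.6 to 119.8, fibroblast markers (5 of 5) to 1991 against 1352 to 3841, and blood markers (5 of 5) to 248 against 87.8 to 252. The 2 neutrophil markers analysed, S100a8 and Csf3r, stayed at or near 0. Control 1 lay inside the range of the other libraries for satellite cell, macrophage, fibroblast and blood markers and below it for cardiac markers. It also lay below it for endothelial markers (592 against 610 to 883), and inside it for Schwann cell, adipocyte and cartilage or bone markers. It lay above that range for fast muscle markers, at 333549 against 226347 to 278047, and for the smooth muscle list, at 7407 against 4717 to 6119, which holds Des, a gene of skeletal fibres too. Their part in the members' values was not tested.

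To see whether the androgen changed these genes, ORX+DHT muscle was compared with ORX muscle, which uses no control library. Jun rose, and it was the only member of the 7 with a mean of at least 10 in this comparison to be called (limma, Benjamini-Hochberg adjusted p under 0.05), where 4.08% of all 8770 genes tested were called, 2.38% higher and 1.7% lower. Jun (ENSMUSG00000052684, chr4:95049034-95052222, minus strand) read 114, 114 and 93.5 in ORX 1, 2 and 3 and 132, 166 and 169 in ORX+DHT 1, 2 and 3, with 137, 117 and 131 in controls. Every ORX+DHT library lay above every ORX library. The mean went from 107 ± 11.9 to 156 ± 20.8 (SD, n = 3), beside 129 ± 10.3 in control, a log2 difference of 0.53 ± 0.13 (SE) with an adjusted p of 0.0231 in limma. Groups without overlap were seen for this 1 of the 7 members and for 19.5% of all genes tested.

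Markers of other cells also moved in this comparison. Of 5 fibroblast markers 2 fell, Col1a1 and Lum, which encode matrix proteins, with log2 differences of -1.18 and -1.79 (called by limma), and the list's median was -0.46. The summed list lay between 2876 and 3841 for ORX libraries and between 1700.4 and 2388 for those with ORX+DHT, without overlap. Of 8 fast muscle markers 2 rose, Acta1 and Myh1, and the sums of all 8 lay between 226347 and 237814 for ORX and between 240850 and 264092 for ORX+DHT. In the smooth muscle list Des rose, and the 1 cartilage or bone marker tested, Ibsp, fell. These genes were named after their values were seen. The sums of the smooth muscle, endothelial, Schwann cell and cartilage or bone lists did not overlap between the groups either, and those of the cardiac, satellite cell, macrophage, neutrophil, adipocyte and blood lists did. The part of these markers in the Jun values was not tested.

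The call on Jun depended on single libraries. Its log2 fold change kept its sign in each of 16 alternative analyses, from 0.44 to 0.65, and passed in 11 of them. It lost its call without ORX replicate 3 (log2 fold change 0.44, limma adjusted p 0.0880), without ORX+DHT replicate 2 (0.48, 0.115) and without ORX+DHT replicate 3 (0.47, 0.105). It also lost it with DESeq2 (adjusted p 0.0917) and with all 9 libraries in 1 limma fit (adjusted p 0.134), and it kept it with edgeR (adjusted p 0.0199).

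Of the members chosen on control 1, none was called by limma in ORX+DHT against ORX, nor, for the 3 that passed the filter, by edgeR or DESeq2, and all 4 estimates were negative. Ankrd1 averaged 34.4 ± 11.0 with ORX and 20.3 ± 8.68 with ORX+DHT, a log2 difference of -0.76 ± 0.29 (SE) with an adjusted p of 0.201 in limma, with overlapping groups. Its unadjusted limma p was 0.0176. Egr1 stood at 14.2 ± 7.25 and 8.90 ± 6.84, with -0.73 ± 0.44 (SE, adjusted p 0.482 in limma). Actc1 stood at 1048 ± 195 and 865 ± 428, with -0.39 ± 0.24 (SE, adjusted p 0.500 in limma). This value rested on ORX+DHT 1, the library lowest in Actc1. Without that library the log2 fold change was 0.02, and without ORX+DHT replicate 2, the highest of its group, it was -0.75 and was called (limma adjusted p 0.0481). Atf3, whose mean was under 10, had -0.50 when the filter on low genes was removed (SE 0.50, limma adjusted p 0.797).

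The remaining members were not called either. Junb had a log2 difference of 0.55 ± 0.52 (SE) with an adjusted p of 0.708 in limma, which turned to -0.22 without ORX replicate 3, a library with 2 Junb reads. Ier2 had 0.09 (SE 0.35) and Btg2 -0.32 (SE 0.24), with limma adjusted p of 0.950 and 0.625. With no filter, Fos had -0.03 (SE 0.54, limma adjusted p 0.988) and Myc -1.44 (SE 0.64, limma adjusted p 0.379). The median log2 fold change of the 7 tested members was -0.32, that of all genes tested 0.01. It was -0.73 for the 3 of them chosen on control 1 and 0.31 for the other 4.

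ORX muscle was then compared with control muscle, the comparison that asks what loss of the testes changes. Of the 6 members not chosen on control 1, 4 passed the filter on low genes (Jun, Junb, Ier2 and Btg2) and 0 were called by limma, with 0 at an unadjusted p under 0.05 and 0 called by edgeR or DESeq2. Over all 8631 genes tested 0.0579% were called. Jun had a log2 difference of -0.26 ± 0.16 (SE) with an adjusted p of 0.746 in limma. Its 3 ORX libraries (93.5 to 114) lay below its 3 controls (117 to 137), which was so for 1 of the 4 members and for 14.3% of all genes in either direction. Btg2 averaged 24.6 ± 6.70 in controls and 35.5 ± 11.4 with ORX, a log2 difference of 0.49 ± 0.30 (SE) with an adjusted p of 0.746 in limma, and the groups overlapped. Junb and Ier2 had -0.70 and -0.38 (SE 0.57 and 0.35, limma adjusted p 0.802 and 0.818). Without ORX replicate 3 the Junb value was 0.06. Without control replicate 1 the Btg2 value was 0.28 and that of Ier2 -0.11. Fos, fitted with no filter, had 0.26 (SE 0.54, limma adjusted p 0.921).

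Myc (ENSMUSG00000022346, chr15:61985391-61990374, plus strand), a regulator of growth and ribosome production, did not reach the mean of 10 and was described apart. It had 2, 1 and 1 reads in controls 1 to 3, 5, 14 and 12 reads in ORX and 3, 0 and 10 reads in ORX+DHT muscle. The corresponding normalised counts were 2.497, 1.11 and 0.993, then 4.91, 11.9 and 9.93, then 3.04, 0 and 9.88. Every ORX library lay above every control, and the ORX+DHT libraries spanned both ranges. The 0 in ORX+DHT 2 allows a level of up to 2.90 normalised counts, counting error only. With no filter the log2 difference of ORX from control was 1.94 ± 0.48 (SE), with an unadjusted p of 0.00102 and an adjusted p of 0.242 in limma, so it was not called.

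For the 4 members chosen on control 1, ORX against control is described without a test. Actc1 had a log2 difference of -1.27 with all 3 controls and -0.53 without control replicate 1. Ankrd1 had -0.20 and Egr1 0.10 with all controls, and 0.37 and 0.87 without control replicate 1, so that Ankrd1 changed sign. The sign of Ankrd1 also turned without ORX replicate 3 (0.05). That of Egr1 was not settled, with -0.26 without ORX replicate 1, -0.30 and -0.27 without control replicates 2 and 3, and -0.20 in edgeR and -0.23 in DESeq2. Controls 2 and 3 alone had a mean of 1529.9 normalised counts for Actc1, 26.6 for Ankrd1, 4.75 for Atf3 and 6.79 for Egr1. The ORX means were 1048, 34.4, 6.04 and 14.2. Atf3, which passed the filter here only through control 1, had -0.66 with all controls, while its ORX mean lay above that of controls 2 and 3.

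In ORX+DHT against control muscle, which asks whether the hormone brings these genes back to the control level, 4 of the 6 members not chosen on control 1 passed the filter. Of these 0 were called by limma, with 0 at an unadjusted p under 0.05 and 0 called by edgeR or DESeq2, against 0.0349% of all 8595 genes tested. None of the members had groups without overlap, against 14.0% of those genes. Jun had a log2 difference of 0.27 ± 0.16 (SE) with an adjusted p of 0.742 in limma. Btg2, Junb and Ier2 had 0.18, -0.15 and -0.29 (SE 0.26, 0.37 and 0.38, limma adjusted p 0.881, 0.929 and 0.865). With no filter Fos had 0.22 and Myc 0.53 (limma adjusted p 0.935 and 0.886). Without control replicate 1, Btg2 and Junb changed sign, to -0.04 and 0.03, and Ier2 had -0.03. Described without a test, Actc1 had -1.66 with all controls and -0.92 without control replicate 1, and Ankrd1 -0.96 and -0.39. Egr1 had -0.63 with all controls, although its ORX+DHT mean of 8.90 lay above the 6.79 of controls 2 and 3, and Atf3 had -1.16 with no filter. This comparison shares its libraries with the other 2, so the values of a gene in the 3 are not independent.

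**Figure D3:**
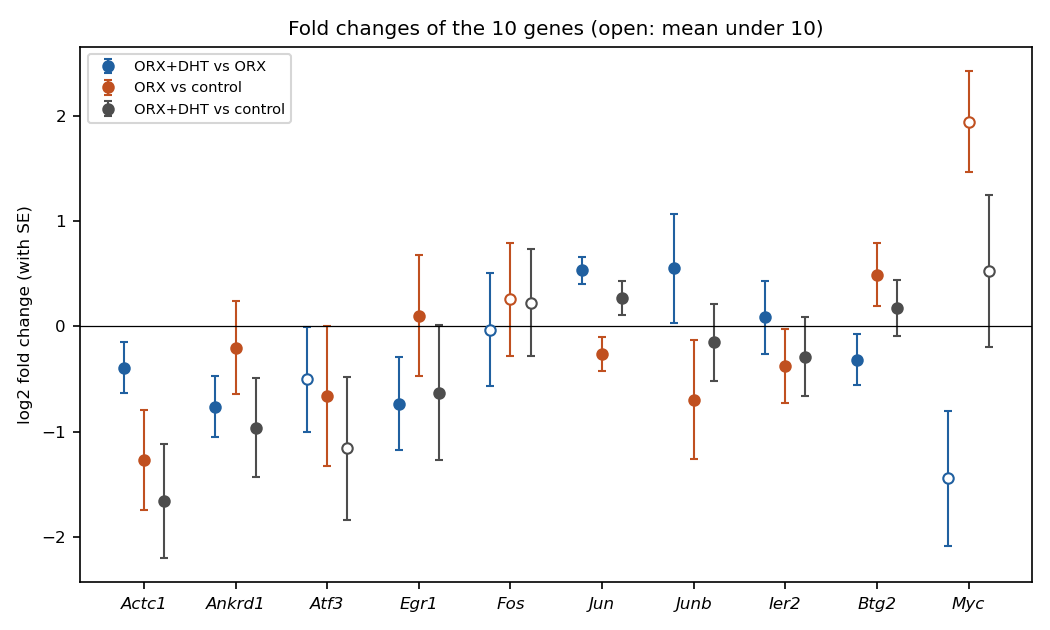
Log2 fold changes (vertical axis, log2(value + 1) scale) of the 10 genes in the 3 comparisons, with standard errors; open points are genes with a mean under 10, fitted with no filter. Jun in ORX+DHT against ORX (0.53, SE 0.13) is the only called value, and Myc in ORX against control (1.94) is the highest of those fitted with no filter. The control comparisons of Actc1, Ankrd1, Atf3 and Egr1 include control 1, which chose them, and are descriptions.

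Other genes of these responses were taken from 4 lists. Among 48 further immediate early genes, which include other AP-1, EGR and NR4A factors and the DUSP phosphatases, 32 were tested in each comparison. In ORX+DHT against ORX 0 rose and 1 fell, Pim1, a growth-promoting kinase, where 4.08% of all genes were called. It averaged 33.4 ± 6.54 with ORX and 14.1 ± 7.92 with ORX+DHT, a log2 difference of -1.30 ± 0.30 (SE) with an adjusted p of 0.0182 in limma. The list's median was -0.01, beside 0.01 for all genes. Against control 0 of the 32 were called by limma, edgeR or DESeq2, with 3 at an unadjusted p below 0.05 for ORX and 4 for ORX+DHT. Of all genes tested 7.21% and 6.48% were below it, and 14.3% in ORX+DHT against ORX. Control 1 was the highest library for 3 of the 32 (Jund, Ccn1 and Gadd45b, named after their values were seen) and the lowest for 6, beside 27.3% and 24.7% of all genes. The median difference of control 1 from the other libraries was -0.10 on the log2 scale. Gadd45b alone lay at least 1 above, at 102 against 27.4 to 48.4, where 3.57% of all genes did.

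Of 16 genes of the integrated stress response, the ATF4 programme in which Atf3 also acts, 7 were tested and 2 called in ORX+DHT against ORX, beside 4.08% of all genes. Vldlr, for a lipoprotein receptor, rose from 436 ± 27.3 to 644 ± 51.4, a log2 difference of 0.56 ± 0.09 (SE) with an adjusted p of 0.000638 in limma. Chac1, for an enzyme that degrades glutathione, fell from 107 ± 49.3 to 41.7 ± 32.9, with -1.59 ± 0.43 (SE, adjusted p 0.0453 in limma), although single libraries overlapped between the groups. Against control 0 of the 7 were called by limma, edgeR or DESeq2, with 1 at an unadjusted p below 0.05 for ORX and 0 for ORX+DHT. Among 18 upstream regulators, such as Srf, Creb1 and the MAP kinases, 18 were tested and 1 was called, a share near that of all genes. Tead4, for a TEAD factor, rose from 9.10 ± 4.07 to 22.5 ± 3.01 in ORX+DHT against ORX, with 1.29 ± 0.31 (SE, adjusted p 0.0231 in limma). Against control 0 of the 18 were called by limma, edgeR or DESeq2, with 1 at an unadjusted p below 0.05 for ORX and 2 for ORX+DHT.

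Of 20 genes of muscle loading and repair, 15 were tested, and 3 rose in ORX+DHT against ORX while 0 fell, where 2.38% of all genes rose and 1.7% fell. Ankrd2, the relative of Ankrd1 in slow and loaded fibres, rose from 127 ± 24.9 to 222 ± 78.4, with 0.76 ± 0.20 (SE, adjusted p 0.0387 in limma), while Ankrd1 itself had a negative value in the same comparison. The small heat shock proteins Hspb1 and Cryab rose by 0.62 and 0.34 on the log2 scale (SE 0.15 and 0.09, limma adjusted p 0.0204 and 0.0384). The list's median was 0.17 there. Against control 0 of the 15 were called by limma or edgeR, with 4 at an unadjusted p below 0.05 for ORX and 1 for ORX+DHT, while DESeq2 called 1, Ankrd2, lower in ORX. The shares of all genes below that p were 7.21% and 6.48%. Control 1 was the highest library for 8 of the 15 and the lowest for 1, beside 27.3% and 24.7% of all genes, with a median difference of 0.61. It lay at least 1 above the others for 4, beside 3.57% of all genes. These were named after their values were seen: Tnfrsf12a (126 against 5.79 to 41.6), Ankrd2 (516 against 100.1 to 299), Csrp3 (207 against 44.7 to 188) and Hspb1 (147 against 52.9 to 101). The merged exons of these 4 span 1.93, 1.14, 2.67 and 1.03 kb. Of all genes of 1 to 2 kb 18.6% lay at least 1 above, and of those of 2 to 3 kb 4.73%. The part of length in this count was not tested.

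Calls among these list genes were less steady than their fold changes. Every one of the 7 kept its sign in all alternatives run, but only Vldlr kept its call in each fit that left out 1 library. edgeR called all 7, DESeq2 called Vldlr alone, and with all 9 libraries in 1 limma fit Vldlr also lost its call (adjusted p 0.214). Pim1 lost it without ORX replicate 2 or ORX+DHT replicate 1 or 3 (highest limma adjusted p 0.128). Chac1 lost it without ORX replicate 1 or 3 or ORX+DHT replicate 1 or 2 (highest 0.204, without ORX+DHT replicate 1, where its log2 difference was -0.91). Tead4 lost it without ORX replicate 1 or 3 or ORX+DHT replicate 1 or 3 (highest 0.131). Hspb1 lost it without ORX replicate 1 or ORX+DHT replicate 1 or 2 (highest 0.137), and Cryab without any 1 library except ORX replicate 1 (highest 0.214). Ankrd2 lost it without ORX replicate 2 or 3 or ORX+DHT replicate 1 or 2 (highest 0.248, without ORX+DHT replicate 1, where its log2 difference was 0.51).

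Genes with profiles like those of 5 members were sought by the smallest root mean square difference of centred log2 values over the 9 libraries, among genes with a mean of at least 50. Near Actc1 were Pvalb, for the calcium buffer parvalbumin (0.63), Ppp1r27 (0.63) and Rpl36a, for a ribosomal protein (0.66), where the median gene had 1.04. Tmem52 (0.45) and Pvalb (0.46) were near Ankrd1. Ppp1r27 (0.58) and Rcan1, a calcineurin-responsive gene (0.61), were near Atf3, and Immp1l (0.57) was near Egr1. Each gene named so far in this comparison of profiles was highest in control 1. The members these genes were matched to had been chosen for standing high in control 1, so this was largely set in advance. Pvalb, for example, stood at 28922 there against 8841 to 14861 elsewhere. For Fos the nearest genes were Ptprg (0.46), Col15a1 and Fn1 (both 0.51), none of them high in control 1.

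Without control 1, other genes came near. Txnip, Nacc2 and Ptcd3 were then nearest to Actc1 (0.30, 0.35 and 0.37), and Hdac4, Pcmtd2 and Mmp2 to Egr1 (0.45, 0.46 and 0.47). Auts2 and Grb10 were near Ankrd1 (0.26 and 0.29), and Auts2 and Arrdc3 near Atf3 (0.26 and 0.36). Ptprg and Fn1 stayed nearest to Fos (0.48 and 0.50), joined by Col5a1 (0.51). These are descriptions over 8 or 9 libraries that share depth and, in control 1, the relation to transcript length.

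**Figure D4:**
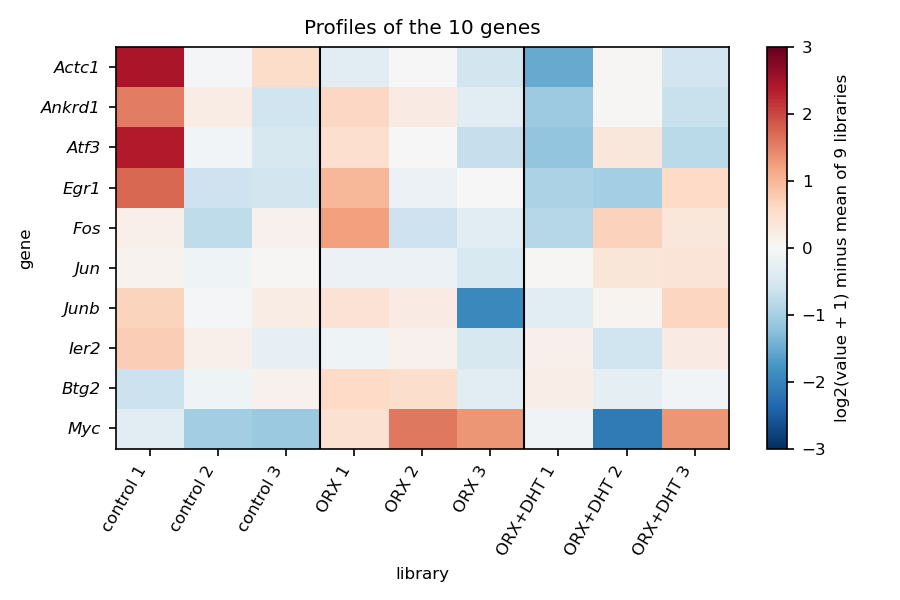
Log2(value + 1) minus each gene's mean over the 9 libraries (colour) for the 10 members (rows); columns are libraries. The column of control 1 is high for Actc1, Ankrd1, Atf3 and Egr1, whereas Jun varies little and Btg2 is low in control 1.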

How the data were processed

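The authors deposited 2 tables of normalised counts, a signal in which the reads of each protein-coding gene are divided by 1 factor per library, 1 table for control and ORX and 1 for ORX and ORX+DHT. Trim Galore 0.6.7, HISAT2 2.2.1, featureCounts 2.0.1, DESeq2 1.36.0 and build GRCm38 are named, per the submitters' processing notes, with no role or order. The annotation release, and whether reads were counted by strand, are not given in the sources used here. Columns called sham were taken as the control group and matched by replicate number.

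Within every column 100% of values were whole multiples of 1 step (within 0.001), so reads were recovered, but for control 3 the step was too near 1 for a separate unit check. Printed levels are on a joint scale: the 14300 genes present in both tables, with the 9 libraries brought together by median-of-ratios factors. Each comparison was fitted across all genes with limma 3.58.1 in R 4.3.3 (lmFit, eBayes with trend), keeping genes whose mean reached 10 and adding a pseudocount of 1 before the log2, within its own table, and ORX+DHT against control on the joint values. Fold changes on this scale understate those of low genes. edgeR 4.0.16 (quasi-likelihood) and DESeq2 1.42.0 were run on the recovered reads as alternatives. Pseudocounts, filters, TMM and quantile scaling, 1 fit of all libraries, a replicate block and leaving out each library were also tried. The scripts were tested on simulated data.

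Members and lists were chosen with earlier results of these data known. List genes called in any comparison were named, at most 6 per list, and the 3 genes most like each of 5 members. Some of the latter are not reported here. Whether replicate numbers pair the libraries is not known, and the main fits did not use them. Of 9 same-number pairs 1 had deviations correlated above 0.1. Between ORX and ORX+DHT, same-number pairs had correlations of 0.063, 0.061 and 0.151, and different-number pairs -0.087 to 0.025.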

Additional observations from a re-analysis of the deposited data

How the results depend on the processing

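In ORX+DHT against ORX the number of members called, 1, was 0 with all 9 libraries in 1 fit and 0 with DESeq2, and ran from 0 to 1 when 1 library was left out. The single call without ORX+DHT replicate 2 was Actc1, not Jun. In both comparisons with control it was 0 in all alternatives run. With the replicate block, members called stayed at 1, 0 and 0. Whether these numbers mark true pairs is not known (correlation of deviations -0.165 to 0.151 for same-number pairs). In ORX+DHT against ORX, Jun then had a limma adjusted p of 0.00474, and the calls over all genes went from 358 to 571. Over all genes these calls were 124 with all 9 libraries in 1 fit, 224 with DESeq2 and 223 to 350 with 1 library left out. ORX against control gave 5, and 16 with no filter, 23 with all 9 libraries, 28 with DESeq2 and 1 to 51 with 1 library left out, the highest without control 1. ORX+DHT against control gave 3, and 6 after quantile normalisation, 11 with all 9 libraries, 13 with DESeq2 and 0 to 66, again highest without control 1. Quantile normalisation moved the calls higher in ORX+DHT than ORX from 209 of 358 to 161 of 327. Fits with 1 library left out turned the sign of some uncalled values. Over them, in ORX+DHT against ORX, the log2 difference ran from -0.75 (called) to 0.0197 for Actc1 (without ORX+DHT replicates 2 and 1), from -0.22 (without ORX replicate 3) to 0.78 for Junb and from -0.0768 (without ORX replicate 3) to 0.35 for Ier2, which was -0.0291 and -0.0642 without ORX+DHT replicates 1 and 3. In ORX against control Junb ran from -0.86 to 0.0634 (without ORX replicate 3). Of the members described there without a test, Egr1 ran from -0.30 (without control 2) to 0.87 and Ankrd1 from -0.70 (without control 3) to 0.37, both highest without control 1. In ORX+DHT against control Junb ran from -0.41 to 0.0749 (without ORX+DHT replicate 1; 0.0342 without control 1), and Btg2 from -0.0404 (without control 1) to 0.35. The cause was not tested. Counts of 46 to 117 reads over 9 libraries limit Fos, Myc, Atf3, Junb, Ier2 and Egr1.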
